A study of Mus musculus with 79 samples.

Results

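The genes of heme and iron handling in the mouse lung were followed across genotype, smoke exposure, sex and exposure duration. The set was chosen by gene symbol and comprised Hmox1, Hmox2, Blvra, Blvrb, Alas1, Fth1, Ftl1, Slc40a1 and Tfrc, and each gene was represented by the array entry with the highest mean. An entry was found for 8 of these 9 genes among the 31350 entries of the table, and Hmox2 was not analysed here. The set was proposed because the exposure response of Hmox1 in these mice was already known. The Hmox1 exposure and exposure by duration coefficients are therefore a description and carry no test. Each of 79 mice gave right lung RNA for its own array, and the mice formed 16 groups with 4 to 6 in each. WT or βENaC genotype was crossed with smoke or sham exposure, with sex and with duration (1 or 5 consecutive days), and all lungs were taken 4 hours after the final exposure. The mice were littermates of 5 to 7 weeks of age on a C57BL/6J background. βENaC mice carry an Scnn1b transgene driven in airway epithelial cells and develop chronically inflamed, mucus-obstructed airways. Smoke-exposed mice received mainstream and side-stream smoke of 6 unfiltered 3R4F research cigarettes per day, and sham-exposed mice breathed room air in the same kind of chamber.

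Heme oxygenases open the heme ring and release iron, carbon monoxide and biliverdin. HMOX1 is the inducible form, and its gene is held down by the heme-sensing repressor BACH1 and switched on by NRF2 (gene Nfe2l2) when cells meet oxidants or heme. Biliverdin is reduced to bilirubin by the biliverdin reductases BLVRA and BLVRB. The freed iron is stored in ferritin, a shell of heavy (FTH1) and light (FTL1) chains, or leaves the cell through ferroportin (SLC40A1), and transferrin-bound iron enters through the transferrin receptor (TFRC). ALAS1 catalyses the first and rate-limiting step of heme synthesis outside red cells. In the lung, alveolar macrophages carry much of the iron recycling work.

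The values are log2 intensities, which lay between 1.98 and 13.41 over all entries, with array medians between 4.44 and 4.55. The transgene separated the genotypes, with Scnn1b between 8.42 and 9.47 in the 40 WT mice and between 11.52 and 11.88 in the 39 βENaC mice. For 1 mouse this check was not independent, since the study had assigned its genotype from that gene. In 13 mice titled WT and smoke-exposed, another label field gave the genotype as βENaC, and the titles and genotype entries were followed. An earlier clustering of these arrays set 4 mice apart, which were replicate 2 of the 5-day WT smoke females, replicate 1 of the 1-day βENaC sham males, replicate 3 of the 5-day βENaC sham males and replicate 3 of the 5-day βENaC smoke females. Test results of the set that crossed the threshold without these mice are given with and without them. Ranges, counts of mice and group or stratum means include all mice. In whole lung RNA, fewer cells of a type and less RNA per cell cannot be told apart.

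Hmox1 (NM_010442, GRCm38 chromosome 8, 75093618 to 75100593) had far higher levels in smoke-exposed mice at 1 day and a smaller difference at 5 days. At 1 day the log2 intensity ranged from 7.26 to 9.33 in the 20 sham-exposed mice, with a median of 7.79, and from 8.63 to 10.63 in the 20 smoke-exposed mice, with a median of 9.51. All 20 smoke-exposed mice lay above the sham median, and 12 of them lay above every sham-exposed mouse. The exposure β coefficient, which is the smoke minus sham difference in a model with genotype and sex, was 1.76 (SE 0.13), or 3.38-fold. At 5 days the sham-exposed mice ranged from 7.33 to 9.21 with a median of 7.75, and the 19 smoke-exposed mice ranged from 7.21 to 9.45 with a median of 8.13. The arms overlapped over nearly their whole range, with 14 of 19 smoke-exposed mice above the sham median. The coefficient was 0.24 (SE 0.13), or 1.18-fold. By stratum, the 5-day difference was -0.19 in βENaC females and between 0.33 and 0.44 in the others. The exposure by duration term, the 5-day minus the 1-day difference, was -1.47 (SE 0.25).

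By value, the 1-day difference was larger in males than in females. The 5 WT smoke-exposed males had Hmox1 levels of 10.44, 9.89, 10.24, 10.48 and 9.76, and the 5 WT smoke-exposed females had 8.78, 9.21, 8.93, 9.23 and 9.25. In the βENaC smoke-exposed mice, the males had 9.72, 10.63, 9.54, 10.11 and 10.24 and the females 8.63, 9.41, 9.29, 9.49 and 9.22. Every one of the 10 smoke-exposed males thus lay above every one of the 10 smoke-exposed females. How many of all entries separate the sexes in this way was not counted. In the WT sham-exposed mice, the males had 7.81, 7.72, 7.51, 7.51 and 7.60 and the females 7.32, 7.77, 7.84, 7.59 and 7.68. The βENaC sham-exposed males had 9.33, 8.19, 8.11, 7.76 and 7.83 and the females 7.26, 8.71, 7.93, 8.05 and 7.82. The sexes overlapped in both sham pairs, and the highest sham value belonged to 1 of the 4 mice set apart. The smoke minus sham difference was 2.53 in WT males (5.78-fold), 1.44 in WT females (2.72-fold), 1.81 in βENaC males (3.50-fold) and 1.26 in βENaC females (2.39-fold).

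**Figure D1:**
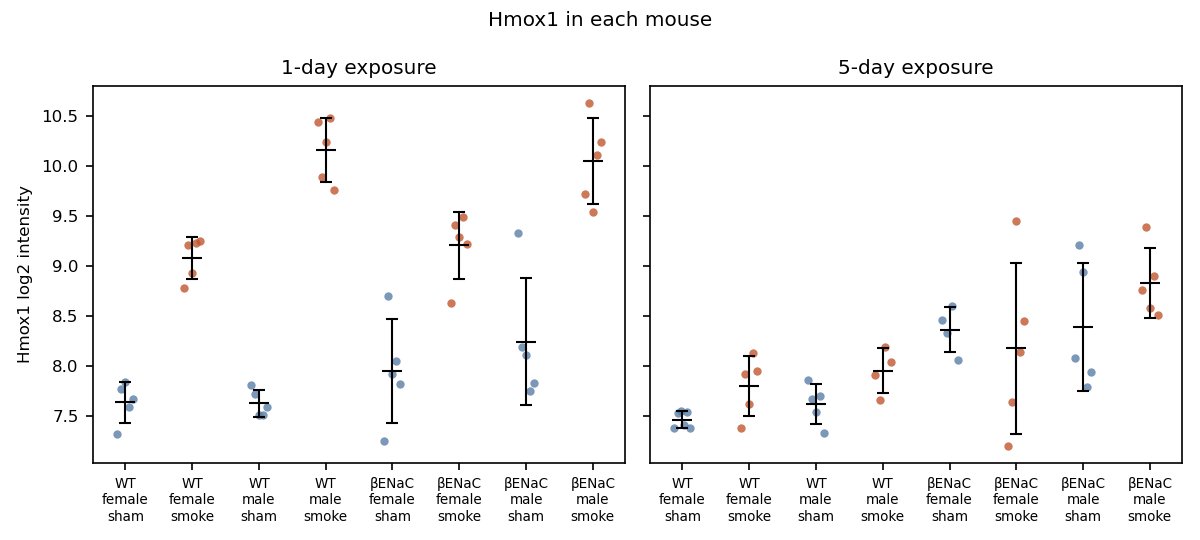
Hmox1 log2 intensity of each mouse (points) in the 8 groups of the 1-day exposures (left) and of the 5-day exposures (right), with sham-exposed mice in blue, smoke-exposed mice in orange, and black bars for the mean ± SD. At 1 day the smoke-exposed males lie between 9.54 and 10.63 and the smoke-exposed females between 8.63 and 9.49, while at 5 days the smoke-exposed and sham-exposed mice of each genotype and sex overlap.

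Averaged over exposure and genotype, Hmox1 was higher in males at 1 day by 0.55 (SE 0.13, adjusted p = 0.00515), with means of 9.02 in 20 males and 8.47 in 20 females. It was the sole member called for sex at 1 day, where 0.845% of all entries were called, and 9.89% passed the adjusted p alone. At 5 days its sex coefficient was 0.25 (SE 0.13, adjusted p = 0.478). No member was called for sex at 5 days by limma or by the ordinary linear model, where Blvrb alone passed an unadjusted p of 0.05, against 0.198% of all entries called and 0.616% past the adjusted p alone. The test of the sex difference in the exposure response itself did not pass. The 1-day exposure by sex term of Hmox1 was 0.82 (SE 0.23, 95% interval 0.37 to 1.27, adjusted p = 0.457), and the exposure by genotype term was -0.46 (SE 0.23, adjusted p = 0.725). In a joint moderated F-test (limma), these terms passed for 0 of the 8 members at 1 day and for 0 at 5 days. Hmox1 alone passed an unadjusted p of 0.05, at 1 day, in limma and in the ordinary linear model. The Hmox1 interaction terms use the exposure values for which the set was proposed, so their p-values too are a description. Of all entries, 0.00638% passed this joint test at 1 day and 0% at 5 days.

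Hmox1 was also higher in βENaC mice, and this difference passed at 5 days. At 5 days the 20 WT mice ranged from 7.33 to 8.20 with a median of 7.64, and the 19 βENaC mice ranged from 7.21 to 9.45 with a median of 8.47. In this comparison 12 βENaC mice lay above every WT mouse, and 1 lay below every WT mouse. The genotype coefficient was 0.72 (SE 0.13, 1.65-fold, adjusted p = 0.00022). At 1 day it was 0.23 (SE 0.13, adjusted p = 0.387), and the genotype by duration term was 0.49 (SE 0.19, adjusted p = 0.813). Among the sham-exposed mice alone, WT mice were at 7.64 ± 0.16 (SD, n = 10) after 1 day and 7.54 ± 0.16 (SD, n = 11) after 5 days, and βENaC mice at 8.10 ± 0.57 (SD, n = 10) and 8.38 ± 0.47 (SD, n = 9). The spread between mice was wider in βENaC than in WT sham-exposed mice at both durations. No member passed for genotype by duration or for sex by duration in limma or the ordinary linear model, and Hmox1 alone passed an unadjusted p of 0.05, for genotype by duration. Of all entries, 0% passed for genotype by duration and 0.654% for sex by duration.

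Over the other members, the exposure response was small but mostly upward. Of the 7 members other than Hmox1, Blvrb alone was called for exposure at 1 day and at 5 days. A call required an adjusted p below 0.05 and more than a 1.3-fold difference, and 1.08% of all entries were called at 1 day and 1.16% at 5 days. With the adjusted p alone, Blvrb, Ftl1 and Slc40a1 rose at 1 day and Blvrb, Alas1, Fth1 and Ftl1 rose at 5 days, and none fell. The adjusted p alone passed 9.45% of all entries at 1 day and 6.53% at 5 days. The median exposure coefficient of the 7 members was 0.08 at 1 day and 0.16 at 5 days, beside 0.01 and -0.0018 over all entries. For exposure by duration, 0 of the 7 members passed, against 0.612% of all entries, and Alas1 and Tfrc passed an unadjusted p of 0.05 in limma and in the ordinary linear model.

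**Figure D2:**
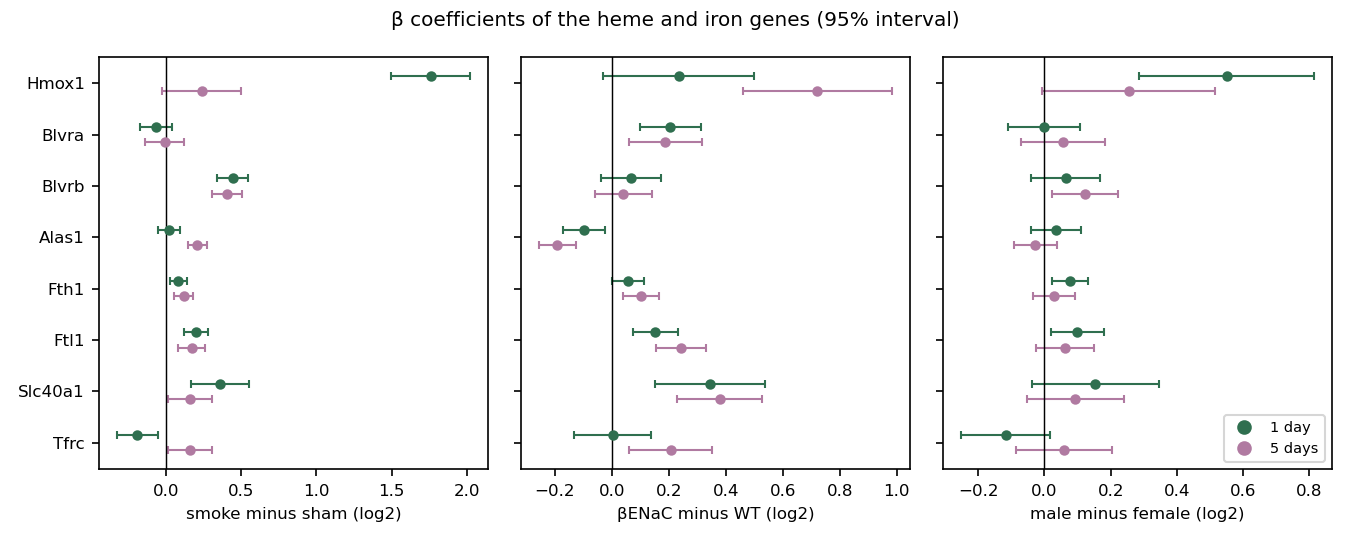
β coefficients with 95% intervals of the 8 genes for exposure (smoke minus sham), genotype (βENaC minus WT) and sex (male minus female), on the log2 scale, at 1 day (green) and 5 days (purple). Hmox1 stands apart for exposure at 1 day (1.76), Blvrb is near 0.4 at both durations, and Alas1 is the sole gene below 0 for genotype at 5 days (-0.19).

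Blvrb (ENSMUST00000037399, chromosome 7, 27447978 to 27465981), which reduces biliverdin and also flavins, rose at both durations by about the same amount. At 1 day it ranged from 5.26 to 6.07 in sham-exposed mice (median 5.66) and from 5.72 to 6.37 in smoke-exposed mice (median 6.17). At 5 days it ranged from 5.57 to 5.98 in sham-exposed mice (median 5.76) and from 5.67 to 6.62 in smoke-exposed mice (median 6.20). Above every sham-exposed mouse lay 13 of 20 smoke-exposed mice after 1 day and 17 of 19 after 5 days. The coefficients were 0.44 (SE 0.053, 1.36-fold, adjusted p = 1.56e-07) and 0.41 (SE 0.051, 1.33-fold, adjusted p = 4.10e-07). The difference was upward in all 4 genotype and sex strata at each duration. Its exposure by duration term was -0.03 (SE 0.077, adjusted p = 0.932, 95% interval -0.18 to 0.12).

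Blvra (NM_026678, chromosome 2, 127070629 to 127097084), which encodes the main biliverdin reductase of adult tissue, did not pass for exposure. Its coefficient was -0.07 (SE 0.055, adjusted p = 0.536) at 1 day and -0.0088 (SE 0.065, adjusted p = 0.970) at 5 days, with 95% intervals of -0.17 to 0.04 and -0.14 to 0.12. It was instead higher in βENaC mice at 1 day, by 0.21 (SE 0.055, 1.15-fold, adjusted p = 0.0157), where 9 of 20 βENaC mice lay above every WT mouse. At 5 days its genotype coefficient was 0.19 (SE 0.065, adjusted p = 0.058). It passed in 3 of 10 other settings, which were quantile normalization (adjusted p = 0.0447), omission of the lowest 30% of entries (0.0444) and 1 fit over all mice (0.0330). It also passed on leaving out any of 7 single mice. The 2 reductase genes thus differed in which comparison they passed, and the difference between the genes was not tested.

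To show what lies upstream of these genes, the 250 bases before the start sites of Blvrb and Ftl1, which rose at both durations, are printed beside those of Blvra, which did not pass. The sequences are from RefSeq on GRCm38.p6, 5′ to 3′ on the strand of the gene, and capitals mark the antioxidant response element core TGACNNNGC on either strand.
Blvrb (plus strand, chr7:27447728-27447977): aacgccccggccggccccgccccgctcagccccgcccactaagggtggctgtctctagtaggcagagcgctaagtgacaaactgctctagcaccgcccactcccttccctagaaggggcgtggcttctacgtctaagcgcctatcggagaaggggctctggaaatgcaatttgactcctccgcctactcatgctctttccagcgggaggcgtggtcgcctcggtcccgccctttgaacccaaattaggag
Blvra (plus strand, chr2:127070407-127070656): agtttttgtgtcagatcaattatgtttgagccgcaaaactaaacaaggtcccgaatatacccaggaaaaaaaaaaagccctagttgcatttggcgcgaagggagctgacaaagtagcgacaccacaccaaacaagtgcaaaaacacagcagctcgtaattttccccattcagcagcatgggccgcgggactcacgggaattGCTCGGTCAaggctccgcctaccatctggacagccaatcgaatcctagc
Ftl1 (minus strand, chr7:45459887-45460136): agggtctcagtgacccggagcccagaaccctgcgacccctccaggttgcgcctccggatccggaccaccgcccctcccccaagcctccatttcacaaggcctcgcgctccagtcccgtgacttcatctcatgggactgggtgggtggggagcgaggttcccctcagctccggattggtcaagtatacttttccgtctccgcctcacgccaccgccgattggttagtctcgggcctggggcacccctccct
The core was matched once in these 3 stretches, on the minus strand of Blvra. The match began 49 bases before the start site that the promoter table gives for Blvra. That site lies downstream of the gene start printed above, so the end of the Blvra stretch falls within the annotated gene. Windows of 300 bases, reaching from 250 before to 50 after a start site, were given for 7 of the 9 genes (13 windows), and Blvra held the sole match among them. The promoters of Hmox1 and Slc40a1 were not analysed here. Of all 32851 windows, 12.4% held a match. Of the 15 windows of 11 NRF2 target genes listed outside heme and iron handling, 6 did.

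Alas1 (NM_001291835, chromosome 9, 106233455 to 106247954) rose with smoke at 5 days and was lower in βENaC mice. At 5 days it ranged from 9.94 to 10.54 in sham-exposed mice (median 10.31) and from 10.17 to 10.84 in smoke-exposed mice (median 10.49). The exposure coefficient was 0.21 (SE 0.033, 1.16-fold, adjusted p = 2.99e-05), with 17 of 19 smoke-exposed mice above the sham median. At 1 day it was 0.02 (SE 0.038, adjusted p = 0.815). The exposure by duration term was 0.17 (SE 0.060, adjusted p = 0.172), and it passed with genotype and sex added to that model (adjusted p = 0.0417). For genotype, the coefficient was -0.19 at 5 days (SE 0.033, adjusted p = 8.61e-05), where 11 of 19 βENaC mice lay below every WT mouse. Its 1-day genotype coefficient was -0.10 (SE 0.038, adjusted p = 0.142). Among the 9 βENaC sham-exposed mice after 5 days the range was 9.94 to 10.26, below all 11 WT sham-exposed mice, which ranged from 10.31 to 10.54. How many of all entries separate the genotypes among sham-exposed mice was not counted.

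The ferritin chains moved upward with both smoke and genotype, by small amounts. Ftl1 (NM_010240, chromosome 7, 45457944 to 45459886) rose with smoke by 0.20 at 1 day (SE 0.041, 1.15-fold, adjusted p = 0.00085) and by 0.17 at 5 days (SE 0.045, 1.13-fold, adjusted p = 0.0135). At 1 day sham-exposed mice ranged from 11.38 to 12.18 (median 11.72) and smoke-exposed mice from 11.68 to 12.17 (median 11.91). At 5 days sham-exposed mice ranged from 11.47 to 12.20 (median 11.74) and smoke-exposed mice from 11.76 to 12.43 (median 11.90). The arms overlapped, and 18 of 20 and 19 of 19 smoke-exposed mice lay above the sham median. In βENaC mice Ftl1 was higher by 0.15 at 1 day (SE 0.041, adjusted p = 0.0148) and by 0.24 at 5 days (SE 0.045, adjusted p = 0.000219), where 11 of 19 βENaC mice lay above every WT mouse. Fth1 (NM_010239, chromosome 19, 9980600 to 9985111) rose with smoke by 0.12 at 5 days (SE 0.032, 1.09-fold, adjusted p = 0.0172).

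For Fth1 the 1-day exposure coefficient was 0.08 (SE 0.028, adjusted p = 0.055), which passed in 7 of 10 other settings, among them the ordinary linear model (adjusted p = 0.0355) and the fit without the 4 mice set apart (adjusted p = 0.0331). The Fth1 genotype coefficient was 0.10 at 5 days (SE 0.033, adjusted p = 0.0336). It was 0.09 without the 4 mice (adjusted p = 0.0711), and leaving out any of 7 single mice also ended the call. The 1-day genotype coefficient was 0.06 (SE 0.028, adjusted p = 0.281). Ferritin genes have many processed pseudogenes of near-identical sequence, so part of these signals may come from other loci, and the values are uncertain to that extent.

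Ferroportin, the sole known iron exporter of mammalian cells, followed smoke at 1 day and genotype at both durations. Slc40a1 (NM_016917, chromosome 1, 45908070 to 45926532) ranged from 6.39 to 7.39 in sham-exposed mice at 1 day (median 6.78) and from 6.32 to 7.88 in smoke-exposed mice (median 7.30). The exposure coefficient was 0.36 (SE 0.098, 1.28-fold, adjusted p = 0.0137), with 16 of 20 smoke-exposed mice above the sham median. The smoke minus sham difference was -0.065 in WT females and lay between 0.44 and 0.54 in the other strata. At 5 days the coefficient was 0.16 (SE 0.075, adjusted p = 0.232). The 10 βENaC smoke-exposed mice of the 1-day exposures ranged from 7.04 to 7.88 and the 10 WT smoke-exposed mice from 6.32 to 7.45. The exposure by genotype term was 0.34 (SE 0.19, adjusted p = 0.738), so a difference between the genotypes in the response was not shown. Over both exposures, βENaC mice were higher by 0.35 at 1 day (SE 0.098, 1.27-fold, adjusted p = 0.0247) and by 0.38 at 5 days (SE 0.076, adjusted p = 0.000568). The 5-day coefficient of 0.3788 lay just above the call threshold of 0.3785, and leaving out any of 17 single mice put it below. With the threshold rounded up to 0.379, as the study's methods write it, Slc40a1 is not called and Hmox1 is the sole member called for genotype at 5 days. Within groups, Slc40a1 correlated with the mean level of the neutrophil markers (r = 0.694 over 79 mice, 0.683 without the 4 mice set apart), more than with the macrophage markers (0.111). With the monocyte markers r was 0.415, and 0.450 without the 4 mice. The part of the neutrophil and monocyte markers in the Slc40a1 differences was not tested.

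Tfrc (NM_011638, chromosome 16, 32608896 to 32632794), the uptake receptor, did not pass in any main comparison, and its exposure coefficient changed sign between durations. At 1 day the coefficient was -0.19 (SE 0.069, adjusted p = 0.0771), with sham-exposed mice from 8.05 to 9.16 (median 8.42) and smoke-exposed mice from 7.99 to 8.48 (median 8.29). At 5 days it was 0.16 (SE 0.074, adjusted p = 0.230), with sham-exposed mice from 7.9996 to 9.07 (median 8.28) and smoke-exposed mice from 8.06 to 9.20 (median 8.42). All 4 genotype and sex strata had lower means in smoke-exposed mice at 1 day, and all 4 had higher means at 5 days. The smallest 5-day difference, 0.02 in βENaC females, rested on replicate 3 (9.20), 1 of the 4 mice set apart. The other βENaC smoke-exposed females were at 8.30, 8.16, 8.41 and 8.30, below the sham mean of 8.45. The exposure by duration term was 0.36 (SE 0.11, adjusted p = 0.0911). Without the 4 mice set apart the 5-day coefficient was 0.18, at an adjusted p of 0.0499991. The exposure by duration term passed without those mice (0.35, adjusted p = 0.0223), with array weights (0.34, adjusted p = 0.0409) and without replicate 3 of the 5-day βENaC sham males (adjusted p = 0.0391). For genotype at 5 days, the Tfrc coefficient was 0.21 (SE 0.074, adjusted p = 0.0692).

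**Figure D3:**
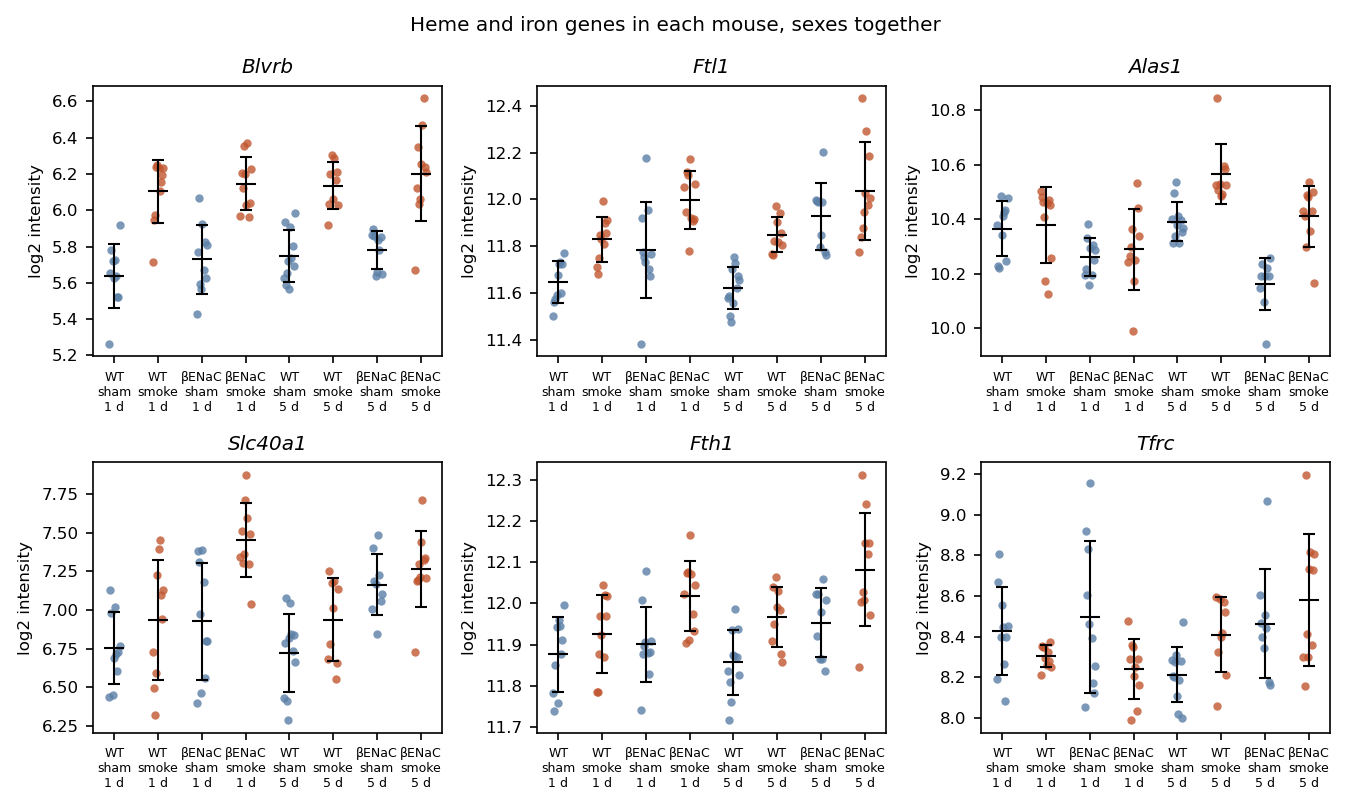
Log2 intensity of each mouse (points) for 6 genes by genotype, exposure and duration, sexes together, with sham-exposed mice in blue, smoke-exposed mice in orange, and black bars for the mean ± SD of 9 to 11 mice. Blvrb and Ftl1 passed for exposure at each duration and Alas1 at 5 days, where its βENaC sham-exposed mice (9.94 to 10.26) lie below its WT sham-exposed mice (10.31 to 10.54).

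Taking the 8 members by genotype, 0 were called at 1 day and 2 at 5 days (Hmox1 and Slc40a1), where 1.55% and 2.53% of all entries were called. At 1 day Blvra, Ftl1 and Slc40a1 nevertheless passed the adjusted p alone, in limma and in the ordinary linear model, and 5 members passed an unadjusted p of 0.05. At 5 days Hmox1, Fth1, Ftl1 and Slc40a1 passed upward and Alas1 passed downward. The adjusted p alone passed 5.87% of all entries at 1 day and 10.2% at 5 days. The median genotype coefficient of the members was 0.11 at 1 day and 0.20 at 5 days, beside 0.0024 and -0.01 over all entries. Markers of alveolar macrophages moved with genotype as well. Of 10 markers, 5 (Marco, Chil3, Cd68, Mrc1 and Itgax) were called higher and Krt79 was called lower in βENaC mice at both durations. The summed marker level ranged from 12.63 to 13.08 on the log2 scale in WT mice and from 12.63 to 13.99 in βENaC mice at 5 days. Chil3, the marker with the highest mean, had a genotype coefficient of 0.79 at 5 days. After the group means were subtracted, the mean marker level correlated with Ftl1 (r = 0.763 over 79 mice, 0.677 without the 4 mice set apart), Blvra (0.708 and 0.609), Fth1 (0.572 and 0.457), Hmox1 (0.434 and 0.235) and Slc40a1 (0.111 and 0.040). For Hmox1, the correlation with the mean neutrophil marker level was 0.520, and 0.430 without the 4 mice. The part of the macrophage and neutrophil markers in the genotype differences was not tested.

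Beyond the members, 48 other genes of heme and iron handling had an entry. In heme synthesis (6 genes), Fech, which inserts iron into protoporphyrin, was called for exposure at 5 days (0.62, SE 0.052, adjusted p = 3.48e-11). At 1 day the Fech coefficient was 0.15 (SE 0.11, adjusted p = 0.445), and Cpox alone passed the adjusted p (0.23, adjusted p = 0.000284). Among 10 genes of heme transport and scavenging, Abcb6, a porphyrin transporter, was called at 1 day (0.47, SE 0.051, adjusted p = 1.68e-08) and at 5 days (0.44, SE 0.052, adjusted p = 1.86e-07). The adjusted p alone passed 9.45% of all entries at 1 day and 6.53% at 5 days. In the heme transport list it passed 3 genes upward and 1 downward at 1 day, and 6 upward at 5 days. They included Slc48a1, which carries heme out of lysosomes, with 0.22 (adjusted p = 0.000355) and 0.26 (adjusted p = 2.88e-05), and Cd163, the hemoglobin scavenger receptor, with 0.36 at 5 days (adjusted p = 0.00243). The list's median exposure coefficient was 0.11 at 1 day and 0.20 at 5 days.

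Of 15 iron uptake and export genes, Slc11a1, the phagosomal metal transporter, was called lower at 1 day (-0.50, SE 0.15, adjusted p = 0.0206), and none was called at 5 days. The list's median exposure coefficient was -0.05 at each duration. For genotype, 4 of the 15 were called higher at 1 day and 5 at 5 days, against 1.55% and 2.53% of all entries called. The largest at 5 days were Lcn2, which binds bacterial siderophores (1.01, adjusted p = 1.32e-11), and the ferrireductase gene Steap4 (0.95, adjusted p = 1.02e-06). Among the storage and mitochondrial genes (9), Slc25a37, the mitochondrial iron importer of red cell precursors, was called for exposure at 5 days (0.80, SE 0.060, adjusted p = 2.41e-12). Ncoa4, the receptor for ferritin breakdown, rose at 5 days by 0.18 (SE 0.030, adjusted p = 4.94e-05). Of 8 iron regulation genes, none was called for exposure at either duration by limma, and with the adjusted p alone Hfe and Bmp6 fell at 1 day and Hfe fell at 5 days. Hamp, which encodes hepcidin, the ligand that removes ferroportin, was called lower in βENaC mice at 1 day (-0.49, adjusted p = 0.0207) and at 5 days (-0.56, adjusted p = 0.0119). The 5-day coefficients of Fech and Slc25a37 stood beside higher red cell marker levels. Of 8 red cell markers, 7 (all but Rhag) were called higher in smoke-exposed mice at 5 days, against 1.16% of all entries called. None of them passed at 1 day.

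The summed red cell marker level ranged from 9.998 to 12.10 in sham-exposed and from 11.46 to 12.60 in smoke-exposed mice at 5 days. Hbb-bt, the marker with the highest mean, had a 5-day exposure coefficient of 0.97, and Slc4a1, the red cell anion exchanger, had 1.89. Called markers also included Alas2 (0.96), Epb42 (0.46) and Ahsp (0.94). The lowest marker, Rhag, had a mean of 3.12. After the group means were subtracted, the mean red cell marker level correlated with Alas1 at r = -0.400 and with the other 7 members between -0.011 and 0.210 over 79 mice. For genotype at 5 days, Alas2 (-0.39) and Hbb-bt (-0.38) were called lower and Ahsp (1.47) higher in βENaC mice. The part of the red cell markers in the Fech, Slc25a37 and Alas1 differences was not tested.

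**Figure D4:**
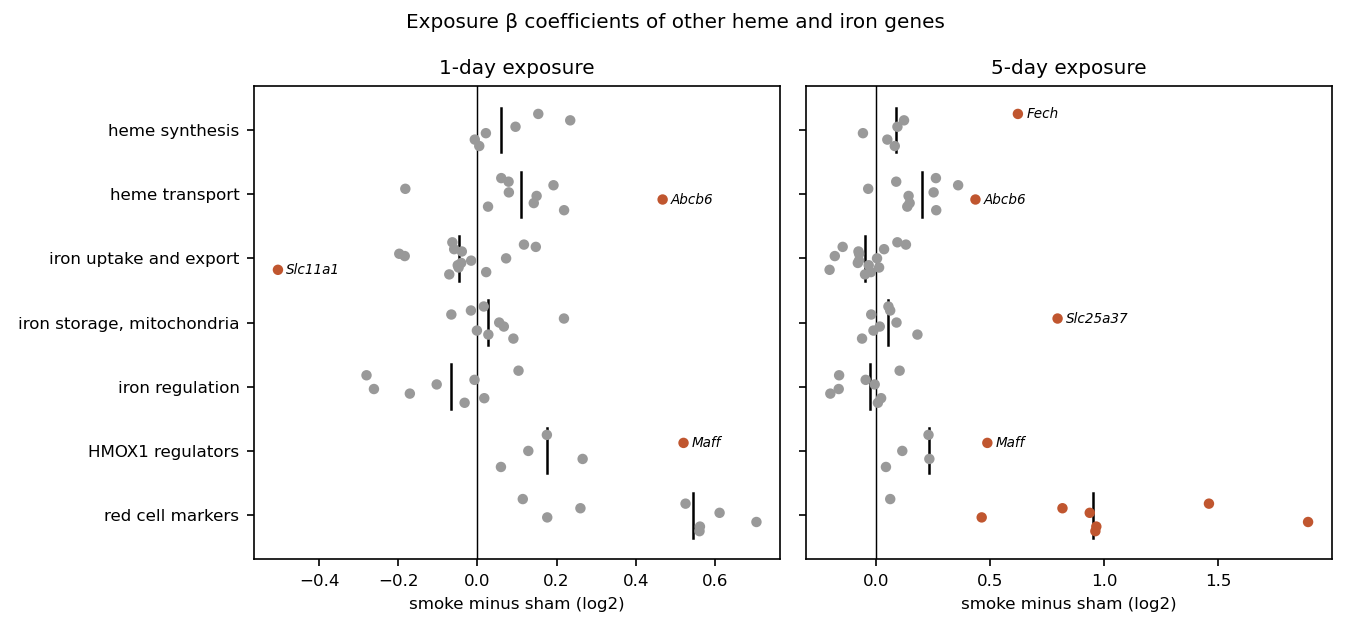
Exposure β coefficients (smoke minus sham, log2) of the genes of 7 lists at 1 day (left) and 5 days (right). Each point is a gene, orange where it was called, and black lines mark the list medians. Abcb6 and Maff are called at both durations, while Fech, Slc25a37 and 7 of the 8 red cell markers are called at 5 days alone.

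Of the genes that control Hmox1, Maff, a small MAF partner of NRF2 and BACH1, was called at 1 day (0.52, SE 0.10, adjusted p = 0.000402) and at 5 days (0.49, SE 0.073, adjusted p = 1.08e-05). Nfe2l2 rose by 0.27 at 1 day (SE 0.029, adjusted p = 1.24e-08) and by 0.23 at 5 days (SE 0.027, adjusted p = 6.37e-08). Mafk rose by 0.18 (adjusted p = 0.0263) and 0.23 (adjusted p = 0.00148). Bach1 and Keap1 did not pass at either duration. The Bach1 coefficients were 0.06 (adjusted p = 0.375) at 1 day and 0.04 (adjusted p = 0.540) at 5 days. Those of Keap1 lay nearer the threshold, with 0.13 (SE 0.044, adjusted p = 0.0567) and 0.12 (SE 0.038, adjusted p = 0.0563). None of these 5 genes passed for exposure by duration.

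NRF2 targets outside heme and iron handling were mostly higher in smoke-exposed mice. Of 12 measured, 8 were called higher at 1 day and 8 at 5 days, against 1.08% and 1.16% of all entries called. The same 8 genes were called at both durations. The list was chosen with earlier results of these data known. The list's median exposure coefficient was 0.93 at 1 day and 0.50 at 5 days. Nqo1, a quinone reductase, had 2.87 and 2.64, and Slc7a11, the cystine transporter, had 3.65 and 1.69. The glutathione synthesis genes Gclc (1.06 and 0.40) and Gclm (1.19 and 0.79) and the sulfiredoxin gene Srxn1 (1.35 and 0.60) also had larger 1-day values. Txnrd1 (0.83 and 0.60), Osgin1 (1.02 and 0.60) and Pgd (0.41 and 0.40) completed the group. The exposure by duration term passed for Gclc (-0.64, adjusted p = 0.0177), Gclm (-0.42, adjusted p = 0.0212), Srxn1 (-0.74, adjusted p = 0.0145) and Slc7a11 (-1.86, adjusted p = 0.0297), and it was -1.47 for Hmox1. Whether Hmox1 differed from these targets was not tested.

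Likeness to Hmox1 was measured by Pearson's r among 21771 genes with a symbol. Over all 79 mice, whose smoke and sham arms differ, the 5 closest genes were Gclc (r = 0.916), Slc7a11 (0.913), Srxn1 (0.876), Psat1 (0.847) and Lrp8 (0.827), with Spearman's rho between 0.798 and 0.930. After the mean of each of the 16 groups was subtracted, so that mice were compared within their groups, the closest were Slc7a11 (r = 0.836), Glrx (0.795), Timp1 (0.772), Psmb5 (0.765) and Pgk1 (0.761). The rho values were 0.774, 0.668, 0.629, 0.606 and 0.671. Without the 2 mice farthest from the Hmox1 median, r was 0.786, 0.712, 0.673, 0.666 and 0.678. Without the 4 mice set apart, r was 0.774, 0.696, 0.664, 0.659 and 0.694. The median r over all ranked genes was 0.035. Each point is 1 array, and mice of a group shared their exposure. Among the members, Ftl1 came closest within groups (r = 0.713, rank 28), then Tfrc (0.606), Blvra (0.587), Fth1 (0.547), Blvrb (0.534) and Slc40a1 (0.471), and Alas1 was at -0.053. Without the 4 mice, these were 0.589, 0.431, 0.407, 0.388, 0.498, 0.464 and -0.045.

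**Figure D5:**
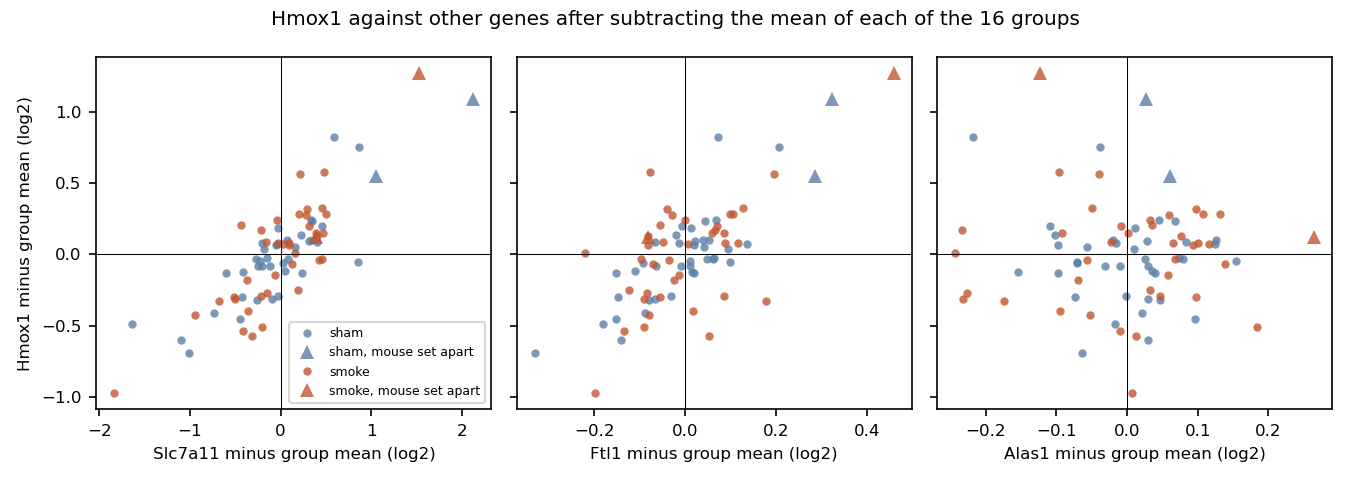
Hmox1 log2 intensity against Slc7a11, Ftl1 and Alas1 in 79 mice (points), each after the mean of its group was subtracted, with sham-exposed mice in blue, smoke-exposed mice in orange and triangles for the 4 mice set apart. Hmox1 tracks Slc7a11 (r = 0.836) and Ftl1 (r = 0.713) from mouse to mouse within groups but not Alas1 (r = -0.053), and 3 of the 4 triangles lie 0.55 to 1.27 above their group mean of Hmox1.

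Other cell type markers also moved with smoke. Monocyte markers were lower in smoke-exposed mice, with 4 of 8 called at 1 day (Ly6c2, Treml4, Fcgr1 and Clec4a3) and 5 at 5 days (Ccr2, Cx3cr1, Treml4, Fcgr1 and Clec4a3). Of all entries, 1.08% were called for exposure at 1 day and 1.16% at 5 days. The summed monocyte marker level ranged from 12.00 to 12.40 in sham-exposed and from 11.89 to 12.13 in smoke-exposed mice at 1 day. Ace, the monocyte marker with the highest mean, had a 1-day coefficient of 0.05. After the group means were subtracted, the mean monocyte marker level correlated over 79 mice with Tfrc (r = 0.491), Ftl1 (0.457) and Blvrb (0.443). It also correlated with Slc40a1 (0.415), Hmox1 (0.381), Blvra (0.375), Fth1 (0.240) and Alas1 (-0.376). Of 7 neutrophil markers, Retnlg, the one with the highest mean, was called lower at 1 day (-0.66), and none was called at 5 days. Of the 10 macrophage markers, none was called for exposure at 1 day, and Ear2 was called lower at 5 days (-0.41). The defining markers of lung epithelium and endothelium were present in every group, with a summed level between 14.78 and 15.00, and none of the 8 was called for exposure. Scgb1a1, the highest of them, had exposure coefficients of -0.0013 and -0.0088. Among 10 clock output genes, Per2 was called higher (0.73) and Nr1d1 (-0.53) and Npas2 (-0.46) lower in smoke-exposed mice at 5 days, and none was called at 1 day. The part of these markers in the exposure differences of the members was not tested.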

How the data were processed

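RNA from the right lung of each of 79 mice was hybridised to Affymetrix moGene 2.1 arrays, all on 1 plate. The authors deposited log2 intensities, made by RMA. They had left out 1 array whose exposure label disagreed with plasma cotinine and with expression, a choice that drew in part on the smoke response. Per the labels' processing notes, Affymetrix Expression Console 1.4 and Partek 6.6 were used. The genome build was not given in the sources used here, and coordinates are those of the RefSeq gene table (GRCm38.p6). The deposited values were used unchanged, and 0 sample columns were left out. Precision is limited by how many arrays each group has. Nothing says whether mice of a group shared a cage or an exposure run, so p-values measure the spread between these mice.

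Symbols came from the names in the study's tables or from RefSeq accessions, and 9513 of 31350 entries had none. The supplementary tables of fold changes and p-values were not used. Each duration was fitted in R 4.3.3 with limma 3.58.1 (lmFit, eBayes) on genotype, exposure and sex. Interactions were fitted as the report states. Adjusted p-values are limma's unless another tool is named, by the Benjamini-Hochberg method over all entries tested. A call needed an adjusted p below 0.05 and a coefficient over log2(1.3) in size, or the adjusted p alone for interactions. The 95% intervals are the coefficient ± 1.96 SE. On simulated data, limma recovered 94 of 100 genes changed by 0.4 and 100 of 100 changed by 1 for exposure at 1 day. For the joint interaction test at 1 day it recovered 45 and 95 of 100, with an exposure by genotype change planted. No exposure by sex change was simulated and the values were drawn independently, so these counts do not give the recovery of such a change here.

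The members and the 13 gene lists were chosen with earlier results of these data known. The genes named were all members, list genes called for exposure (some are not reported here), the marker with the highest mean in each cell type list, the 5 genes most like Hmox1 under each measure, Scnn1b, and genes named after their values were seen (Cpox, Slc48a1, Cd163, Ncoa4, Hfe, Bmp6, Hamp, Lcn2, Steap4, Nfe2l2, Mafk, Bach1, Keap1, Rhag, the red cell and macrophage markers called for genotype). Alternatives were the ordinary linear model of the study's methods, eBayes with trend and robust prior, array weights, median centering, quantile normalization, omission of the lowest 30% of entries, the mean of all entries per symbol, a block for replicate number, fold thresholds of none or 1.5, 1 fit over all mice, other interaction models, leaving out each mouse, and leaving out 4 mice set apart by an earlier clustering. Figures came from matplotlib 3.10.9 (Python 3.11.15).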

Additional observations from a re-analysis of the deposited data

Results flagged for a closer look

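Each member was compared within each of the 16 groups, and in 13 of these 128 sets the highest or the lowest mouse stood far from the rest. Chance flags about 1 in 20 such sets. The 13 values came from 9 mice. Replicate 1 of the 1-day βENaC sham males was high for Hmox1 (9.33) and Tfrc (9.16), and replicate 3 of the 5-day βENaC smoke females was high for Ftl1 (12.43) and Tfrc (9.20). These mice, and replicate 2 of the 5-day WT smoke females, high for Alas1 (10.84), were among the 4 set apart by the earlier clustering. Replicate 4 of the 5-day βENaC sham females was low for Blvra (6.44), Blvrb (5.63) and Ftl1 (11.80). The other flagged values were Alas1 in replicate 2 of the 5-day βENaC sham males (9.94) and in replicate 5 of the 1-day WT smoke females (10.17), Ftl1 in replicate 3 of the 1-day WT sham males (11.60), Slc40a1 in replicate 1 of the 5-day βENaC smoke females (6.73) and Tfrc in replicate 3 of the 5-day βENaC smoke males (8.36).

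Several genes of the NRF2 lists differed between durations or genotypes by a test of the difference itself. The exposure response was smaller at 5 days than at 1 day for Gclc (-0.64, adjusted p = 0.0177), Gclm (-0.42, adjusted p = 0.0212), Srxn1 (-0.74, adjusted p = 0.0145) and Slc7a11 (-1.86, adjusted p = 0.0297). At 1 day the Slc7a11 smoke minus sham difference was also smaller in βENaC than in WT mice (-2.30, SE 0.39, adjusted p = 0.0186). Sham means of females and males were 4.48 and 4.65 in WT but 6.04 and 6.56 in βENaC mice. Smoke means were 8.96 and 9.78 in WT and 8.32 and 9.28 in βENaC mice. The highest βENaC sham-exposed male (8.69) was 1 of the 4 mice set apart, and the term was not refitted without it. For Mafk the male minus female difference was lower at 5 days than at 1 day (-0.31, adjusted p = 0.0195).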

How the results depend on the processing

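The members called for exposure numbered 1 at each duration, 3 (1 day) and 4 (5 days) with no fold threshold, and 0 at 1.5-fold. Leaving out 1 mouse gave 1 to 2 at 1 day. Genotype gave 0 at 1 day (3 with no fold threshold) and 2 at 5 days (5 with no fold threshold, and 1 at 1.5-fold, with arrays centered on their medians or with quantile normalization). Leaving out 1 mouse gave 1 to 2 there, as Slc40a1 crossed the threshold. The single sex call at 1 day, Hmox1, became 0 at 1.5-fold. Exposure by duration went from 0 to 1 with array weights or without the 4 mice set apart (Tfrc both times), and with genotype and sex added (Alas1). Leaving out 1 mouse gave 0 to 1. The sign turned for values near 0 that were never called. These were Tfrc for genotype at 1 day (-0.017 with array weights, -0.010 when centered, -0.012 with quantile normalization, -0.038 without the 4 mice, and -0.038 to 0.030 leaving out 1 mouse), Blvra for exposure at 5 days (0.000162 when centered, and -0.047 to 0.013 leaving out 1 mouse), Alas1 for sex at 1 day (-0.0044 with quantile normalization), Blvra for sex at 1 day (-0.026 to 0.021 leaving out 1 mouse) and Ftl1 for exposure by duration (-0.038 to 0.012 leaving out 1 mouse). With quantile normalization Tfrc passed for exposure at 1 day (-0.21, adjusted p = 0.0413). Of 160 refits of the 16 member results past the adjusted p, 159 kept their side of the threshold and direction, the exception being Fth1 for genotype at 5 days. The cause was not tested. The median correlation of same-numbered mice was 0.010 (lowest -0.276), beside 0.00035 for mice of other numbers. For 28 of 79 mice the best correlate had the same number. Whether replicate numbers mark a pairing was not tested. The replicate block left every count of calls as it was, with 1 at 1 day and 1 at 5 days for exposure, and 2 for genotype at 5 days.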
